A study of Chlorocebus aethiops with 36 samples.

Results

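Expression of 9 genes of liver glucose metabolism was followed in livers of African green monkeys given anti-miR-33 or a control anti-miR. The genes were SLC2A2, GCKR, PFKFB3, PKLR, PDK4, PCK1, PCK2, FBP1 and GYS2. Every probe set whose platform annotation named only 1 of these symbols was taken, which gave 13 of the 54675 probe sets on the array. PKLR and PDK4 had 3 probe sets each and the other genes 1 each. A filter on low values kept 12 of the 13 for testing and left out the PDK4 probe set 1562321_at, whose mean log2 expression was 3.40.

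The liver takes up glucose after a meal and releases it during a fast, and it switches between these states partly by changing the amounts of enzymes at a few irreversible steps. SLC2A2 encodes GLUT2, the glucose transporter of the hepatocyte surface, and GCKR encodes the regulatory protein that binds and inhibits glucokinase in the nucleus. Glucose is broken down to pyruvate by glycolysis and rebuilt from lactate, glycerol and amino acids by gluconeogenesis, while glycogen serves as the store. Insulin, glucagon and glucose itself regulate many of these genes in liver, and PKLR is a textbook target of the glucose-sensing factor ChREBP (gene symbol MLXIPL).

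The anti-miR-33 arm held 6 male monkeys given an oligonucleotide against miR-33 at 5 mg/kg under the skin, and the control arm held 6 male monkeys given a control anti-miR at the same dose. Each monkey was biopsied 3 times. The week -5 biopsy preceded all injections, the week 4 biopsy was taken during injections while the animals ate chow, and the week 12 biopsy followed 8 weeks on a diet rich in carbohydrate with moderate cholesterol. The 36 arrays therefore formed 6 groups of 6, and the arm of each untreated week -5 array was read from the later labels of the same animal. The week 12 contrast with earlier times combines diet, duration of treatment and time in both arms, and no group stayed on chow to week 12. Ages were not given in the labels. A human array (Affymetrix HG-U133 Plus 2.0) met monkey RNA, so levels are given per probe set, on the deposited log2 scale, and were not compared between probe sets. A change measured in whole liver can come from a change in RNA per cell or in the share of cells that express the gene, which cannot be told apart here.

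The arrays had medians between 4.42 and 4.51 on the log2 scale, and pairs of arrays correlated at r between 0.971 and 0.993. The array's own control probe sets for GAPDH and ACTB lie at both ends of each transcript, and the 3′ minus 5′ difference, which grows as RNA is degraded or copied incompletely, averaged 2.57 ± 0.43 at week -5, 1.94 ± 0.41 at week 4 and 1.83 ± 0.16 at week 12 (log2, SD, n = 12 each). This value is the mean of GAPDH and ACTB. On every week 4 array GAPDH was above ACTB, whereas the 2 genes lay closer at weeks -5 and 12. In anti-miR-33 animal 2 GAPDH and ACTB gave 2.68 and 2.83 at week -5, but 2.57 and 1.86 at week 4. The covariate at week 4 therefore averages 2 unequal values. The week 4 array of control animal 1 carried the later diet in its label, unlike the other week 4 arrays. The week 12 array of control animal 5 had a summed linear signal of 108000 for 16 hepatocyte marker genes, the lowest of all arrays, and the same sum reached 178000 in its group. The week 4 arrays also carried a separate run of array numbers in their labels, so that run and the week 4 time point cannot be told apart. All 16 hepatocyte markers passed the filter, with group means of their log2 levels between 12.78 and 12.93.

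No member probe set passed the test between the arms at any time, whereas several passed it between times with both arms averaged. With limma and an adjusted p under 0.05 as the threshold, 0 of 12 member probe sets were called for anti-miR-33 against control at week -5, at week 4 and at week 12. The share called over all 22391 tested probe sets was 0% at week -5, 0% at week 4 and 0.00447% at week 12, which is 1 probe set. Differences between the arms in the change over time gave 0 of 12 in each of the 3 intervals, with 0% called over all probe sets in each. With both arms averaged, 2 member probe sets rose and 2 fell at week 4 against week -5, where 16.7% of all tested probe sets rose and 19.8% fell. Week 12 against week -5 gave 4 that rose and 1 that fell, where 11.2% of all rose and 14.7% fell. Week 12 against week 4 gave 2 that rose and 0 that fell, where 12.9% of all rose and 13.4% fell. The 7 of 12 with an unadjusted p under 0.05 at week 4 against week -5 compare with 45.3% of all tested probe sets. In either direction the 4, 5 and 2 of 12 compare with 36.5%, 25.9% and 26.3% of all tested probe sets. The median log2 change over the 9 genes was 0.04 at week 4 and 0.005 at week 12 against week -5. The 2 sets of shares stand side by side as a description, with no test between them.

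Within the anti-miR-33 arm, FBP1 was the 1 member probe set of 12 called at week 4 against week -5, where 9.1% of all rose and 10.5% fell (19.6% in either direction). GYS2 and 1 PKLR probe set rose at week 12 against week -5, where 7% rose and 8.29% fell (15.3% in all), and the same PKLR probe set rose at week 12 against week 4, where 5.01% rose and 6.81% fell (11.8% in all). Within the control arm, FBP1 fell and 1 PDK4 probe set rose at week 4 against week -5, where 7.28% rose and 11% fell (18.3% in all). GYS2 rose at week 12 against week -5, where 2.93% rose and 5.66% fell (8.59% in all), and PFKFB3 rose at week 12 against week 4, where 3.65% rose and 4.11% fell (7.76% in all).

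**Figure D1:**
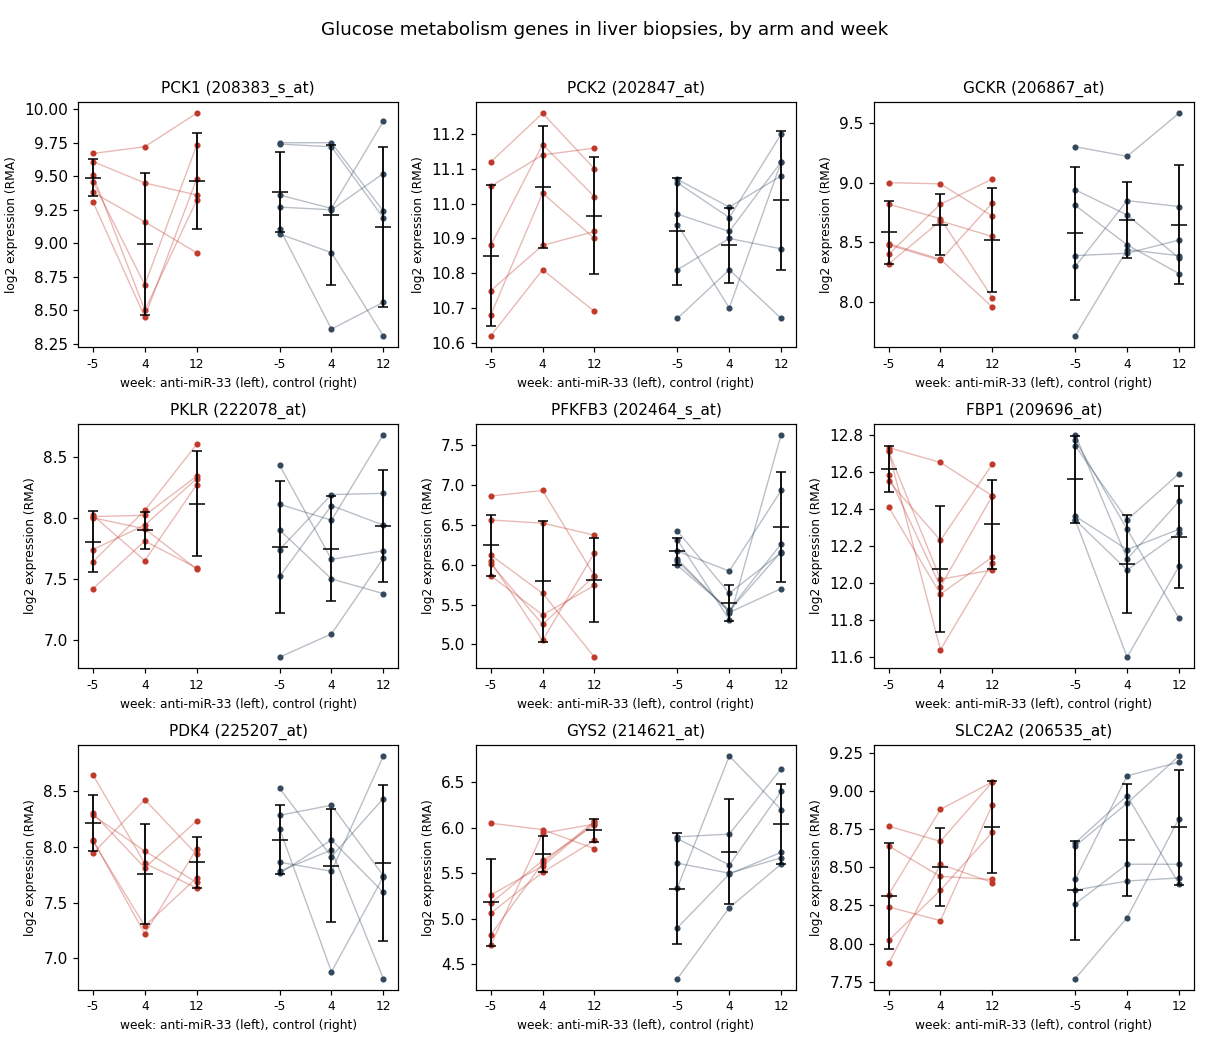
Log2 expression (y axes) of the main probe set of each of the 9 genes by week (x axes: -5, 4, 12), with the anti-miR-33 arm left of the control arm. Points joined by lines are animals (n = 6 per group), and black marks are the group mean and SD. The groups of the 2 arms overlap at every time in every panel, and FBP1 sits lower at week 4 than at week -5 in both arms.

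SLC2A2 (probe set 206535_at) was higher at week 12 than before treatment with both arms averaged, and no difference between the arms passed the test. In anti-miR-33 livers its log2 expression ran from 7.87 to 8.77 with a median of 8.28 at week -5, from 8.15 to 8.88 with a median of 8.48 at week 4, and from 8.40 to 9.06 with a median of 8.82 at week 12. Control livers ran from 7.77 to 8.66 (median 8.385), from 8.17 to 9.10 (median 8.72) and from 8.39 to 9.23 (median 8.67) at the same weeks. The 2 arms overlapped at each week, and the week 12 values reached higher than the week -5 values in both. Averaged over arms, SLC2A2 was 1.35-fold higher at week 12 than at week -5 (log2 difference 0.43 ± 0.11, SE, n = 12 animals, higher in 10 of 12, limma adjusted p = 0.00403). At week 4 against week -5 the log2 difference was 0.26 ± 0.11, with a limma adjusted p of 0.0689, and 0.0341 with the animal as a fixed block. For anti-miR-33 livers alone the week 12 difference was 0.45, with an adjusted p of 0.0507, and 0.0215 with the same block. With the 3′ minus 5′ value as a covariate the week 12 difference was 0.11 (adjusted p = 0.744). At week 12 the arms differed by 0.00 on the log2 scale, with a 95% interval from -0.35 to 0.35.

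GCKR (206867_at) showed no change that passed the test in any of the 15 comparisons, and its animals differed widely. Its log2 expression in anti-miR-33 livers ran from 8.32 to 9.00 (median 8.485) at week -5, from 8.35 to 8.99 (median 8.69) at week 4 and from 7.96 to 9.03 (median 8.635) at week 12. The control arm ran from 7.72 to 9.30 (median 8.60), from 8.41 to 9.22 (median 8.605) and from 8.24 to 9.58 (median 8.455). All 6 groups overlapped. The spread within groups (SD 0.403) was larger than that of 96.6% of tested probe sets. The changes with both arms averaged were 0.09 ± 0.14 at week 4 and 0.01 ± 0.14 at week 12 against week -5 (log2, SE, n = 12). The 95% interval for week 12 against week -5 ran from -0.27 to 0.28.

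PFKFB3 (202464_s_at), an enzyme that makes the glycolytic activator fructose 2,6-bisphosphate, fell at week 4 with both arms averaged and was higher at week 12 than at week 4 in control livers. In anti-miR-33 livers its log2 expression ran from 5.86 to 6.86 (median 6.08) at week -5, from 5.05 to 6.93 (median 5.505) at week 4 and from 4.84 to 6.37 (median 5.86) at week 12. In control livers it ran from 5.99 to 6.42 (median 6.12), from 5.31 to 5.92 (median 5.425) and from 5.70 to 7.63 (median 6.21). In the control arm every week 4 value lay below every week -5 value (log2 difference -0.65 ± 0.24, adjusted p = 0.0609, and 0.0328 with the animal as a fixed block). Of all tested probe sets, 2.95% had every control week 4 value below every control week -5 value. Averaged over arms, PFKFB3 was 1.46-fold lower at week 4 than at week -5 (log2 difference -0.55 ± 0.17, lower in 11 of 12 animals, limma adjusted p = 0.0127). With the 3′ minus 5′ value as a covariate that difference was -0.33 and its adjusted p 0.293. PFKFB3 was 1.4-fold higher at week 12 than at week 4 with both arms averaged (0.48 ± 0.17, higher in 9 of 12, adjusted p = 0.0372). That call was kept in 6 of 12 fits that each left out 1 animal; it was lost without anti-miR-33 animal 1, 2 or 5 or control animal 3, 4 or 5, with adjusted p up to 0.139 and a log2 difference down to 0.34.

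In control livers PFKFB3 was 1.93-fold higher at week 12 than at week 4 (log2 difference 0.95 ± 0.24, higher in 6 of 6 animals, limma adjusted p = 0.0142). The corresponding change in anti-miR-33 livers was 0.01 ± 0.24 (higher in 3 of 6). The difference between the 2 changes was -0.94 ± 0.35 on the log2 scale, with an unadjusted limma p of 0.0101, an adjusted p of 0.999 and an exact permutation p of 0.0693 over animals. At week 12 itself, PFKFB3 was 1.59-fold lower in anti-miR-33 than in control livers (log2 difference -0.67 ± 0.27, n = 6 each), with an adjusted p of 0.999 and an exact permutation p of 0.0931. The week 12 values were 5.74, 6.15, 5.86, 6.37, 5.86 and 4.84 in anti-miR-33 animals 1 to 6, against 6.16, 5.70, 6.26, 6.93, 7.63 and 6.15 in control animals 1 to 6. Control animals 4 and 5 were above all anti-miR-33 animals, and the remaining control values fell inside the anti-miR-33 range. The week 12 array of control animal 5 is also the one with the low hepatocyte signal. Without that array the week 12 difference was -0.43 (adjusted p = 1), and the control change from week 4 was 0.72 (adjusted p = 0.062).

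PKLR encodes the liver pyruvate kinase, which catalyses the last step of glycolysis, and its 3 probe sets gave the same direction at week 12 but passed the test in only 1. For 207858_s_at, log2 expression in anti-miR-33 livers ran from 5.39 to 6.26 (median 5.875) at week -5, from 5.66 to 5.89 (median 5.705) at week 4 and from 5.93 to 6.69 (median 6.295) at week 12. Control livers ran from 5.46 to 6.19 (median 5.82), from 5.31 to 6.03 (median 5.81) and from 5.81 to 6.57 (median 6.02). In the anti-miR-33 arm all 6 week 12 values lay above all 6 week 4 values, which was also so for 1.56% of all tested probe sets. Averaged over arms, 207858_s_at was 1.37-fold higher at week 12 than at week 4 (log2 difference 0.45 ± 0.10, higher in 12 of 12 animals, limma adjusted p = 0.000741). Against week -5 the week 12 difference was 0.35 ± 0.10, higher in 9 of 12 animals, with an adjusted p of 0.00645. In anti-miR-33 livers alone the week 12 against week -5 difference was 0.42 ± 0.14 (adjusted p = 0.0334), and it missed the threshold without animal 2, 3, 4, 5 or 6 (0.37 to 0.41).

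The main PKLR probe set, 222078_at, had a log2 difference of 0.20 ± 0.14 at week 12 against week 4 (adjusted p = 0.281), and 210451_at had 0.32 ± 0.13 (adjusted p = 0.0615, and 0.0356 with the animal as a fixed block). For 222078_at the median in anti-miR-33 livers was 7.87, 7.925 and 8.295 at weeks -5, 4 and 12, and in control livers 7.82, 7.82 and 7.835. The 3 probe sets correlated at r between 0.76 and 0.85 over the 36 arrays. With the 3′ minus 5′ value as a covariate the week 12 against week 4 difference of 207858_s_at was 0.41 (adjusted p = 0.000545), while its week 12 against week -5 difference was 0.04 (adjusted p = 0.889). At week 4 against week -5 it was -0.36 (adjusted p = 0.0125) with the covariate and -0.11 without it, and in anti-miR-33 livers alone -0.45 (adjusted p = 0.0354) with it. The probe set 210451_at was -0.39 (adjusted p = 0.0443) with the covariate and -0.06 without it. Under the covariate 3 of 12 member probe sets were called at week 4 against week -5 with both arms averaged, these 2 and FBP1. Of all tested probe sets 25.2% were called in that comparison with the covariate.

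PDK4 encodes a kinase that switches off the pyruvate dehydrogenase complex and so limits the entry of pyruvate into oxidation, and its 2 tested probe sets gave differences of opposite sign, of which only those of 205960_at passed the test. For the main probe set, 225207_at, log2 expression in anti-miR-33 livers ran from 7.94 to 8.64 (median 8.17), from 7.22 to 8.42 (median 7.83) and from 7.63 to 8.23 (median 7.825) at weeks -5, 4 and 12. The control arm ran from 7.76 to 8.52 (median 8.01), from 6.88 to 8.37 (median 7.94) and from 6.82 to 8.81 (median 7.735). For 205960_at the medians in anti-miR-33 livers were 4.98, 5.67 and 5.665, and in control livers 5.165, 5.935 and 5.685. The groups overlapped for both probe sets. At week 4 against week -5 the log2 difference was -0.34 ± 0.15 for 225207_at (adjusted p = 0.081) and 0.68 ± 0.19 for 205960_at (adjusted p = 0.00619). At week 12 against week -5 it was -0.28 ± 0.15 (adjusted p = 0.197) and 0.61 ± 0.19 (adjusted p = 0.0168). The week 4 fall of 225207_at passed with array weights (-0.37, adjusted p = 0.0462) and without the week 4 array of control animal 1 (-0.40, adjusted p = 0.047). Leaving out each animal, its adjusted p ran from 0.0335 (without anti-miR-33 animal 4) to 0.231, and it also passed without control animal 5 (0.0448). The value of 205960_at correlated at r = -0.75 with the 3′ minus 5′ value over the 36 arrays, and that of 225207_at at 0.07. With that value as a covariate, 205960_at changed by 0.04 at week 4 and by -0.14 at week 12 against week -5. In control livers the week 4 rise of 205960_at was 0.83 ± 0.27 (adjusted p = 0.0314). It was lost without control animal 1, 2, 3 or 5, and was 0.58 (adjusted p = 0.158) without animal 1. The both-arm week 12 rise was lost without anti-miR-33 animal 4 (adjusted p = 0.0512) or control animal 2 (0.0676). The 2 probe sets thus gave PDK4 no single direction.

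PCK1 (208383_s_at), the cytosolic phosphoenolpyruvate carboxykinase that is a rate-setting enzyme of gluconeogenesis, was lower at week 4 in most animals but did not pass the test. Its log2 expression in anti-miR-33 livers ran from 9.31 to 9.67 (median 9.485) at week -5, from 8.45 to 9.72 (median 8.925) at week 4 and from 8.93 to 9.97 (median 9.42) at week 12. In control livers it ran from 9.07 to 9.75 (median 9.315), from 8.36 to 9.75 (median 9.255) and from 8.31 to 9.91 (median 9.215). The groups overlapped at every time, and the spread was wider after week -5 in both arms. Averaged over arms, the week 4 against week -5 difference was -0.33 ± 0.15, lower in 10 of 12 animals, with a limma adjusted p of 0.0721. With the animal as a fixed block that adjusted p was 0.0261, and an exact permutation over animals gave an unadjusted p of 0.00488. In anti-miR-33 livers alone it was -0.50 with an adjusted p of 0.0336 under that block. The arms differed by -0.22 ± 0.22 at week 4 and by 0.34 ± 0.22 at week 12, and the change from week 4 to week 12 differed between arms by 0.56 ± 0.29 (adjusted p = 0.999, exact permutation p = 0.11).

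PCK2 (202847_at), the mitochondrial form of the enzyme, was the steadiest of the 9 genes, with an SD within groups of 0.171. In anti-miR-33 livers its log2 expression ran from 10.62 to 11.12 (median 10.815), from 10.81 to 11.26 (median 11.085) and from 10.69 to 11.16 (median 10.97) at weeks -5, 4 and 12. Control livers ran from 10.67 to 11.07 (median 10.955), from 10.70 to 10.99 (median 10.91) and from 10.67 to 11.20 (median 11.10). At week 4 it was higher than at week -5 in 6 of 6 anti-miR-33 animals (0.20 ± 0.09, adjusted p = 0.0998, and 0.0344 with the animal as a fixed block) and lower in 4 of 6 control animals (-0.04 ± 0.09). The difference between the 2 changes was 0.24 ± 0.12 on the log2 scale, with an exact permutation p of 0.0152 before adjustment and a limma adjusted p of 1. It is 1 of 72 arm comparisons of member probe sets, none of which passed the adjusted threshold.

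FBP1 (209696_at), the fructose-1,6-bisphosphatase that catalyses an irreversible step of gluconeogenesis, was lower at week 4 than at week -5 in every animal of both arms. Its log2 expression in anti-miR-33 livers ran from 12.41 to 12.73 (median 12.645) at week -5, from 11.64 to 12.65 (median 12.00) at week 4 and from 12.07 to 12.64 (median 12.305) at week 12. The control arm ran from 12.34 to 12.80 (median 12.55), from 11.60 to 12.34 (median 12.155) and from 11.81 to 12.59 (median 12.28). The groups overlapped in the anti-miR-33 arm and met at 12.34 in the control arm. FBP1 was 1.41-fold lower at week 4 with both arms averaged (lower in 12 of 12 animals, log2 difference -0.50 ± 0.09, limma adjusted p = 4.75e-05). The fall was -0.54 ± 0.13 in anti-miR-33 livers (adjusted p = 0.00285) and -0.46 ± 0.13 in control livers (adjusted p = 0.0107). The control fall was -0.41 with an adjusted p of 0.0518 without control animal 3. At week 12 FBP1 was still 1.23-fold lower than at week -5 (-0.30 ± 0.09, lower in 11 of 12, adjusted p = 0.0103). With the 3′ minus 5′ value as a covariate the week 4 difference was -0.54 (adjusted p = 0.001) and the week 12 difference -0.35 (adjusted p = 0.108). Without control animal 5 the week 12 difference was -0.24 and its adjusted p 0.0522. FBP1 correlated with the 3′ minus 5′ value at r = 0.33 over the 36 arrays, and at -0.12 with group means removed.

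GYS2 (214621_at), the glycogen synthase of liver, was higher at week 4 and at week 12 than before treatment with both arms averaged. In anti-miR-33 livers its log2 expression ran from 4.71 to 6.05 (median 5.115) at week -5, from 5.51 to 5.98 (median 5.625) at week 4 and from 5.77 to 6.07 (median 6.035) at week 12. In control livers it ran from 4.34 to 5.90 (median 5.475), from 5.12 to 6.79 (median 5.545) and from 5.60 to 6.65 (median 5.965). Anti-miR-33 animal 1 had 6.05 at week -5, inside the week 12 range, and the other 5 animals of that arm were below it. Averaged over arms, GYS2 was 1.39-fold higher at week 4 (log2 difference 0.47 ± 0.15, higher in 9 of 12, adjusted p = 0.0133) and 1.69-fold higher at week 12 (0.75 ± 0.15, higher in 11 of 12, adjusted p = 0.000247) than at week -5. The week 12 rise was 0.79 ± 0.21 in anti-miR-33 livers and 0.71 ± 0.21 in control livers. The adjusted p was 0.00913 in anti-miR-33 livers, and above 0.05 without animal 4 (0.0636) or 6 (0.0561). It was 0.0289 in control livers, and above 0.05 without animal 2 (0.0562), 3 (0.11) or 5 (0.0979). The week 4 difference in anti-miR-33 livers alone was 0.53 and did not pass. It passed with the animal as a fixed block (adjusted p = 0.0322), with array weights (0.0264), without anti-miR-33 animal 1 (0.0334), without control animal 1 (0.0493) or 5 (0.046), and without the week 4 array of control animal 1 (0.0416). Of all the members GYS2 tracked the 3′ minus 5′ value most closely, at r = -0.86 over the 36 arrays and -0.80 with group means removed. With that value as a covariate the week 4 difference was -0.13 (adjusted p = 0.473) and the week 12 difference 0.05 (adjusted p = 0.896).

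**Figure D2:**
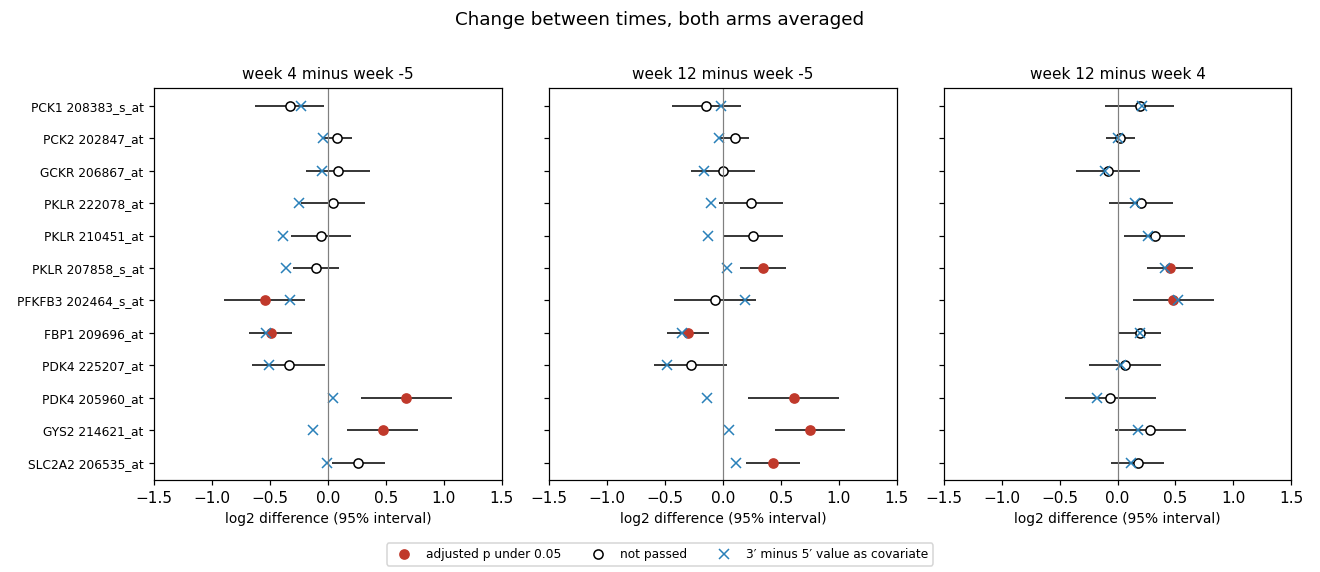
Log2 change of each tested member probe set between times with both arms averaged, as points with 95% intervals (n = 12 animals); filled points have a limma adjusted p under 0.05, and crosses give the value with the 3′ minus 5′ covariate. FBP1 lies below 0 and GYS2 above 0 at both later times against week -5, while the GYS2 crosses lie near 0.

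**Figure D3:**
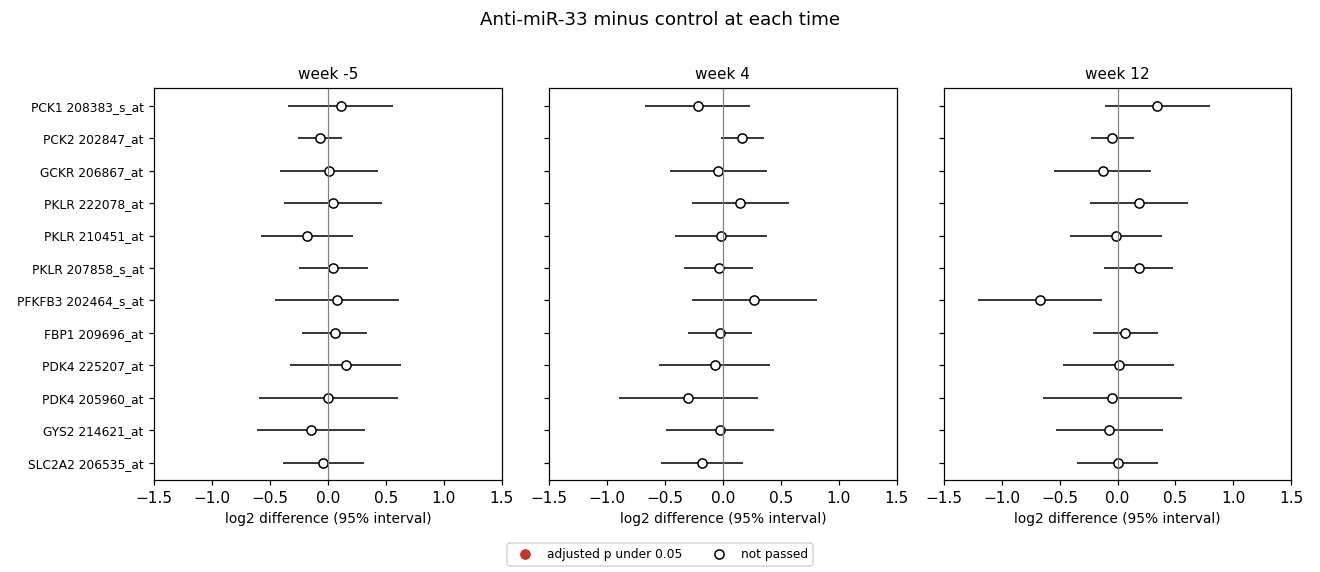
Log2 difference of anti-miR-33 minus control for each tested member probe set at weeks -5, 4 and 12, as points with 95% intervals (n = 6 per arm); open points did not pass the test. No point is filled, and only the PFKFB3 interval at week 12 lies wholly to 1 side of 0.

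The comparisons between arms bound what could be seen. At week 4 the log2 differences of the 12 probe sets ran from -0.30 to 0.27, and their 95% intervals reached from -0.90 to 0.81. At week 12 they ran from -0.67 to 0.34, with intervals from -1.21 to 0.80. At week -5, before treatment, they ran from -0.18 to 0.15. An unadjusted limma p under 0.05 was reached by 0 of 12 at week -5, 0 of 12 at week 4 and 1 of 12 at week 12, where 3% of all tested probe sets reached it. Exact permutation over animals gave 0 of 12 under 0.05 at each of the 3 times. The smallest p that 6 against 6 animals allow in that test is 0.00216.

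**Figure D4:**
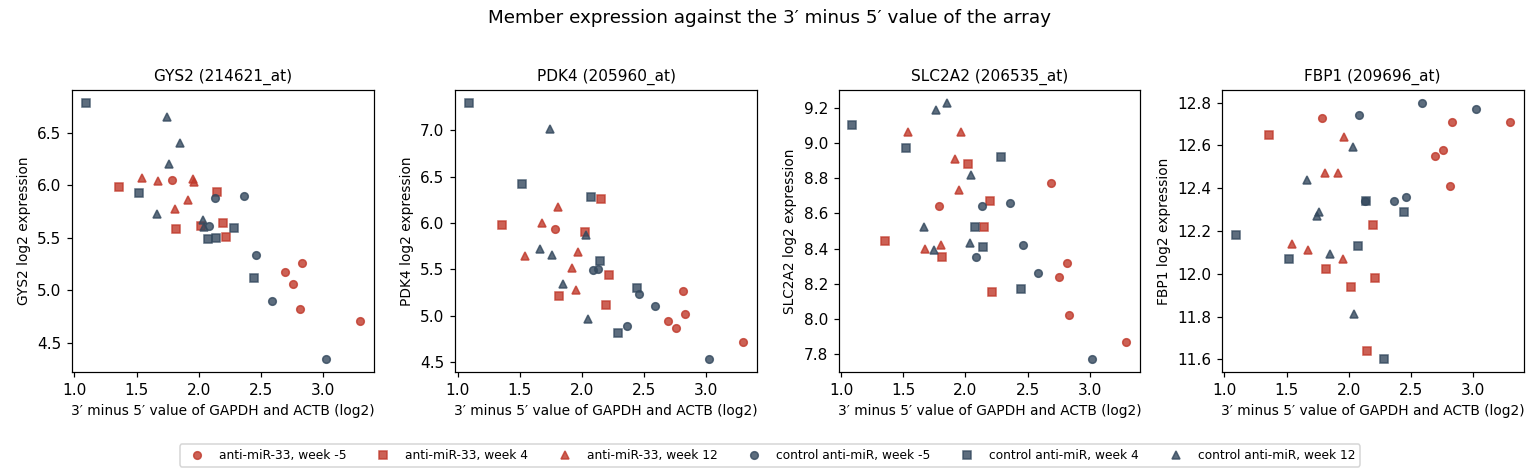
Log2 expression of 4 member probe sets against the array's 3′ minus 5′ control value (log2) over the 36 arrays, coloured by arm and marked by week. GYS2 falls along the axis (r = -0.86), and FBP1 shows little relation to it (r = 0.33).

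Some member genes, each taken by its main probe set, varied together between animals. Over the 36 arrays, which share animals, PCK1 ran against GCKR (Pearson r = -0.56, Spearman -0.54) and against PKLR (r = -0.42). With the other PKLR probe sets PCK1 had r = -0.42 (210451_at) and -0.07 (207858_s_at). The PCK1 and GCKR relation was -0.77, -0.63 and -0.53 within weeks -5, 4 and 12 (n = 12 each). Between the means of the 12 animals it was -0.73, and -0.57 without the 2 animals farthest from the median. PCK1 and PDK4 ran together over all arrays (r = 0.61), at 0.03, 0.80 and 0.50 within the 3 weeks, and at 0.42 between animal means, or 0.12 without the 2 farthest animals. The other tested PDK4 probe set, 205960_at, had r = 0.19 with PCK1 over all arrays. GCKR, PKLR and SLC2A2 ran together at r between 0.60 and 0.66 over the 36 arrays. The PKLR probe set 210451_at had 0.63 with GCKR and 0.77 with SLC2A2, and 207858_s_at had 0.41 and 0.72. Within weeks -5, 4 and 12 the r of GCKR with PKLR was 0.75, 0.42 and 0.78, that of GCKR with SLC2A2 was 0.74, 0.52 and 0.76, and that of PKLR with SLC2A2 was 0.84, 0.37 and 0.67. Between animal means without the 2 farthest animals the same pairs had 0.85, 0.46 and 0.44. GYS2, which tracked the 3′ minus 5′ value most closely, had r = 0.70 with SLC2A2, 0.55 with PKLR and 0.33 with GCKR over the 36 arrays. Within weeks -5, 4 and 12 its r with SLC2A2 was 0.77, 0.65 and 0.23. PCK1 had r = -0.36 with PCK2 over the 36 arrays, and -0.75, -0.40 and -0.12 within the 3 weeks. Within weeks -5, 4 and 12 PCK1 had r = 0.62, 0.0 and 0.05 with the 3′ minus 5′ value. GCKR had -0.49, -0.12 and 0.29, PKLR -0.59, -0.41 and -0.1, and SLC2A2 -0.73, -0.5 and 0.04. The part of that value in the correlations between genes was not tested. All of these correlations describe 12 animals sampled 3 times and carry no test.

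**Figure D5:**
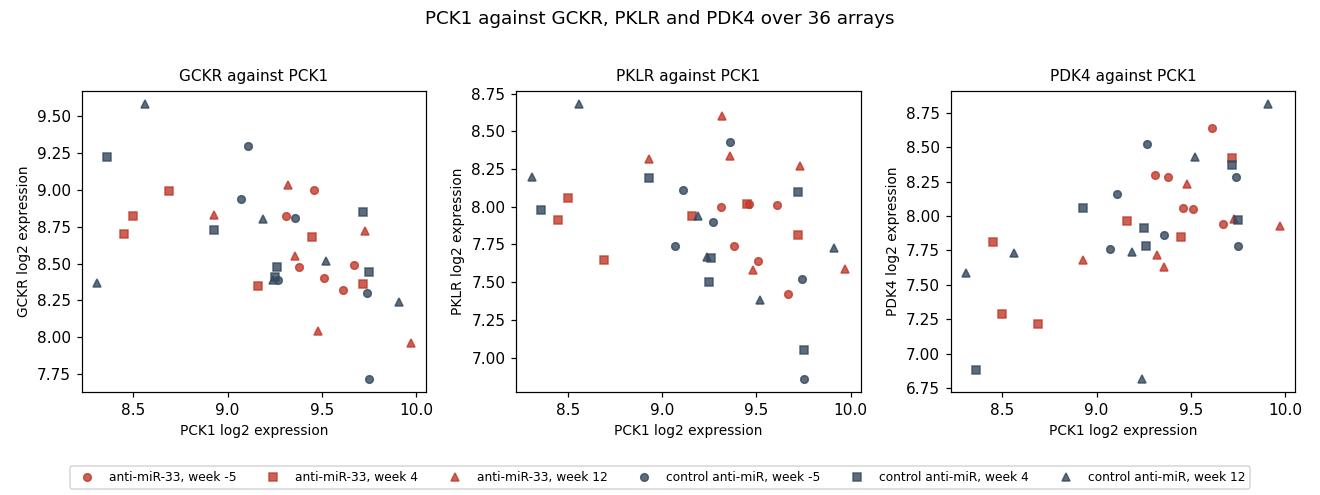
Log2 expression of the main probe sets of GCKR, PKLR and PDK4 (y axes) against PCK1 (x axes) over the 36 arrays, coloured by arm and marked by week. GCKR is lower and PDK4 higher in arrays with more PCK1 (r = -0.56 and 0.61).

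The 3 genes of 13633 whose highest probe set correlated most with each member over the 36 arrays were looked up. For PCK1 they were EGFR (r = 0.902), KIF13A (0.794) and CPT1A (0.789), the last encoding the carnitine palmitoyltransferase that admits fatty acids to mitochondria. For GCKR they were ANGPTL8 (0.797), DNMT1 (0.781) and TAB3 (0.758). For PKLR they were THRSP (0.783), ACACB (0.758) and RDH11 (0.752), of which THRSP acts in the control of fatty acid synthesis. For FBP1 the closest was ASS1 (0.776), a urea cycle enzyme, and for PCK2 it was NDRG2 (0.794). For GYS2 the 3 closest reached 0.92 (EMC7), 0.915 (CMAS) and 0.915 (NDFIP1), and GYS2 itself had r = -0.86 with the 3′ minus 5′ value. SLC2A2 was closest to VPS50 (0.85), PDK4 to PANK1 (0.676) and PFKFB3 to CHSY1 (0.681). With group means removed the r of EGFR with PCK1 was 0.904.

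Of 103 other genes of glucose metabolism and its control that passed the filter, 12 rose and 24 fell at week 4 against week -5 with both arms averaged, where 16.7% of all tested probe sets rose and 19.8% fell. At week 12 against week -5, 22 rose and 22 fell, where 11.2% of all rose and 14.7% fell. Of the same genes 16 rose and 13 fell at week 12 against week 4, where 12.9% of all rose and 13.4% fell. The genes were counted by their main probe set, whereas the shares cover all tested probe sets, so the units differ. None of the 103 genes passed the test between arms at any time. An unadjusted limma p under 0.05 was reached by 1, 2 and 0 of them at weeks -5, 4 and 12. Of all tested probe sets 3.94%, 5.08% and 3% reached it. None of the genes passed for the difference between arms in the change over time either, with 3, 3 and 5 at an unadjusted p under 0.05. Of all tested probe sets 3.42% reached that at week 4 and 2.26% at week 12 against week -5, and 3.62% between the later weeks. With the 3′ minus 5′ value as a covariate the counts were 9 up and 16 down at week 4, 3 up and 3 down at week 12 and 19 up and 14 down between them, where 25.2%, 4.8% and 26.4% of all tested probe sets were called with it. Without the week 12 array of control animal 5 they were 12 and 24, 22 and 19, and 16 and 14. Without the week 4 array of control animal 1 they were 14 and 24, 22 and 22, and 20 and 13.

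Among 21 gluconeogenesis genes, 2 rose and 7 fell at week 4, 6 rose and 5 fell at week 12 against week -5, and 6 rose and 2 fell at week 12 against week 4. In the same order, 16.7%, 11.2% and 12.9% of all tested probe sets rose and 19.8%, 14.7% and 13.4% fell. These shares also apply to the gene lists that follow. The median log2 change of the gluconeogenesis list was -0.17, -0.04 and 0.25 in these comparisons, against -0.0025, -0.00417 and 0.005 over all tested probe sets. FOXO1, a factor that insulin inactivates, was lower at week 4 (-0.69 ± 0.11, adjusted p = 6.95e-06), and its other probe set gave -0.54. NR3C1, the glucocorticoid receptor, was lower at week 4 (-0.63 ± 0.06) and higher at week 12 than at week 4 (0.39 ± 0.06) on its main probe set. CRTC2, a coactivator of gluconeogenic genes, moved the other way (0.34 ± 0.05 at week 4 and -0.30 ± 0.05 after it). PC, pyruvate carboxylase, averaged 9.27, 9.37 and 8.94 at weeks -5, 4 and 12, and fell by 0.44 on the log2 scale at week 12 against week 4 (adjusted p = 1.33e-05). These changes of the 4 genes passed the test with the covariate too. The other NR3C1 probe sets gave -0.20, 0.25 and -0.21 at week 4, so this gene has no single direction. SLC37A4, the glucose-6-phosphate transporter, was 1.00 ± 0.15 higher at week 12 than at week -5 on the log2 scale, but 0.16 (adjusted p = 0.344) with the covariate, and its other probe set gave 0.15. G6PC1, the glucose-6-phosphatase, was 0.71 ± 0.21 higher and gave 0.05 with the covariate, and PPARGC1A did not pass (-0.08 ± 0.31).

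Of 23 glycolysis genes, 2 rose and 7 fell at week 4, 3 rose and 5 fell at week 12 against week -5, and 4 rose and 3 fell at week 12 against week 4. PGK1, phosphoglycerate kinase, was -0.41 ± 0.07 at week 4 against week -5 and 0.45 ± 0.07 at week 12 against week 4, although its other probe sets gave -0.04 and -0.01 for the earlier interval. HK1, hexokinase, was -0.48 ± 0.08 at week 12 against week -5, with an adjusted p of 9.89e-06 and 0.0896 with the covariate. Of 11 glucose-sensing genes, MLXIPL was higher at week 4 (0.34 ± 0.09, adjusted p = 0.00272) and lower at week 12 than at week 4 (-0.46 ± 0.09, adjusted p = 0.000245). It averaged 7.16, 7.49 and 7.03 at weeks -5, 4 and 12, and both of these changes passed with the covariate. TXNIP was lower at week 4 and at week 12 than at week -5 on its main probe set (-0.71 and -0.68), but another of its probe sets gave 0.32 and 0.34, so it has no single direction. SREBF1 was 1.26 ± 0.28 higher at week 12 than at week -5 (adjusted p = 0.000695) and 0.92 (adjusted p = 0.174) with the covariate. Its other probe set gave 0.12.

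Of 16 glycogen genes, 1 rose and 4 fell at week 4, 4 rose and 4 fell at week 12 against week -5, and 3 rose and 1 fell at week 12 against week 4. PGM1, phosphoglucomutase, was -0.39 ± 0.05 at week 4 and 0.30 ± 0.05 at week 12 against week 4, and GBE1, the glycogen branching enzyme, was 0.39 ± 0.08 higher at week 12 than at week -5 and 0.20 (adjusted p = 0.332) with the covariate. PHKG2, a subunit of phosphorylase kinase, was 0.48 ± 0.08 higher at week 12 than at week -5 and kept 0.50 with the covariate. Of 8 genes of the pyruvate dehydrogenase complex and its control, 3 rose and 1 fell at week 12 against week -5. They included DLD (0.83 ± 0.15, and 0.04 with the covariate) and PDK2 (0.31 ± 0.10, and -0.15 with the covariate), whose other probe set gave -0.26. Of 12 genes of insulin and glucagon signalling, 3 rose and 2 fell at week 4, 1 rose and 4 fell at week 12 against week -5, and 0 rose and 4 fell at week 12 against week 4. IRS1, an insulin receptor substrate, was -0.43 ± 0.07 at week 12 against week -5 (adjusted p = 8.02e-06). Its means at weeks -5 and 12 were 7.55 and 6.96 in anti-miR-33 livers and 7.17 and 6.90 in control livers. The arms thus already lay apart before treatment, though that difference did not pass the test. Of 7 fasting-response genes, CREG1 was 0.45 ± 0.07 higher at week 12 than at week -5, and FGF21 was -0.43 ± 0.13, with 0.247 as its adjusted p with the covariate. Of 5 glucose transporters other than SLC2A2, SLC2A5, the fructose transporter, was 0.23 ± 0.07 higher at week 12 than at week -5 (adjusted p = 0.0143). For PGK1, TXNIP, PGM1, IRS1, CREG1 and SLC2A5 no value with the covariate is given here, so their changes are not separated from the 3′ minus 5′ value.

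Markers of other liver cells also moved with time. At week 4 and at week 12 against week -5, 9 of 11 endothelial markers were lower (1 was higher at week 4), with a median log2 change of -0.67 and -0.72. The summed linear signal of these markers ran from 1360 to 1970 in anti-miR-33 livers and from 1350 to 2140 in control livers at week 4, against 2250 to 4280 and 2930 to 4080 at week -5. All 11 passed the filter on low values, and their lowest single value was 4.07, for CLEC4M. In the same comparisons 5 and 3 of 9 macrophage markers fell, 3 and 4 of 8 stellate and fibroblast markers fell, and 0 and 1 of 16 hepatocyte markers fell (1 rose at week 12). Of all tested probe sets 19.8% and 14.7% fell at week 4 and at week 12 against week -5, and 16.7% and 11.2% rose. Of 4 neutrophil and erythroid markers tested, HBB, a globin of red cells, averaged 11.92, 12.13 and 10.55 at weeks -5, 4 and 12, and ALAS2 averaged 5.72, 5.68 and 5.10. Both were lower at week 12 than at week -5 (-1.37 ± 0.23 and -0.61 ± 0.15), and S100A9 was higher (0.20 ± 0.06). At week 4 against week -5 S100A9 and CSF3R were higher (0.20 ± 0.06 and 0.16 ± 0.06). Of 7 lymphocyte markers, PTPRC, which marks leukocytes in general, averaged 6.71, 5.31 and 5.96 at the 3 weeks and was lower at week 4 (-1.40 ± 0.16) and at week 12 (-0.75 ± 0.16) than at week -5. At week 4 CD8A was also lower (-0.20 ± 0.07) and CD3E higher (0.21 ± 0.06), and no other lymphocyte marker passed at week 4 or week 12 against week -5. Of 4 cholangiocyte markers 1 rose at week 4 and 0 at week 12, and 0 of 2 fat and muscle markers passed. The part of any of these cells in the changes of the 9 genes was not tested. Between the arms 0 markers of any list passed the test.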

How the data were processed

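Liver RNA of 12 animals was hybridised to human Affymetrix arrays, 3 per animal. Per the submitters' processing notes the values were made with RMA, and the authors deposited them as log2 expression per probe set. Its version is not given in the sources used here, nor is whether all arrays were normalized in 1 run. Values ran from 2.41 to 15.07, and the number of arrays limits the precision. The 9 genes, the gene lists and the tests were chosen with earlier results of these data known.

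Of 54675 probe sets, 41097 carried 1 symbol and 22391 of those had a mean of at least 4.459, the median over all probe sets. They were fitted with limma 3.58.1 (R 4.3.3) as 6 group means with the animal as a random block (correlation 0.141), in 15 comparisons, with Benjamini-Hochberg adjusted p within each and 0.05 as the threshold. Changes are log2 differences ± SE. A gene's main probe set is the one of highest mean. Named genes are the members, the 3 closest genes to each, up to 4 called genes of smallest p per list, and a few set ones. Animals pair the times by their identity in the labels, and 33 of 36 arrays matched their own animal best over 200 genes. Exact permutations (scipy 1.17.1, pandas 2.3.3) and 22 alternatives were run, including the animal as a fixed block; counts of the gene lists without single arrays or with the 3′ minus 5′ covariate were chosen after seeing the data. Each test was first tried on simulated data.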

Additional observations from a re-analysis of the deposited data

Results flagged for a closer look

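Among 78 groups of 6 animals, 3 held a value whose gap to the nearest other animal was larger, as a share of the group's range, than Dixon's 95% critical value. Chance flags about 1 in 20 groups, so 3 of 78 is not more than that. PKLR (210451_at) was 5.23 in control animal 5 at week 4, where the other 5 animals ran from 6.05 to 6.43. PKLR (207858_s_at) was 5.89 in anti-miR-33 animal 6 at week 4, where the others ran from 5.66 to 5.71. FBP1 (209696_at) was 11.6 in control animal 4 at week 4, where the others ran from 12.07 to 12.34.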

How the results depend on the processing

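Of the 180 member values, 19 passed the threshold. Of 3879 values under alternatives, 3779 kept their side of the threshold, 51 newly passed and 46 no longer passed. Another 3 no longer passed and also changed sign. Values outside the threshold could change sign and still be counted as kept. The GCKR difference between arms at week -5, for example, ran from -0.16 to 0.15 leaving out each animal. All 1530 of the arm values stayed outside the threshold. With the 3′ minus 5′ covariate GYS2 changed to -0.13 at week 4 against week -5 with both arms averaged and to -0.06 at week 12 against week -5 in anti-miR-33 livers, and PDK4 (205960_at) to -0.14 at week 12 against week -5. The cause was not tested. Counts of member probe sets called, both arms, at week 12 against week -5 were 5, and 3 with 1 probe set per gene. They were 0 with the covariate, where 4.8% of all tested probe sets were called. At week 4 against week -5 they were 4, and 3 with the covariate, and 4 to 6 leaving out each animal. There PCK1 and PDK4 (225207_at) newly passed with array weights, PCK1 and SLC2A2 with the animal as a fixed block, and SLC2A2 with quantile normalization. At week 12 against week 4 they were 2, and 1 without the replicate block, without the filter, with 1 probe set per gene, with a trend and robust prior or with array weights, 4 by exact permutation (here an unadjusted p under 0.05), and 1 to 3 leaving out each animal. For anti-miR-33 livers at week 4 they were 1, and 4 with the replicate block, 2 with quantile normalization, the covariate or without the week 4 array of control animal 1, 3 with array weights or exact permutation, and 1 to 2 leaving out each animal. At week 12 against week -5 they were 2, and 1 without the replicate block or filter, 4 with quantile normalization or array weights, 0 with the covariate, and 0 to 3 leaving out each animal. For week 12 against week 4 they were 1, and 0 with 1 probe set per gene. For control livers at week 4 they were 2, and 1 without the replicate block, with 1 probe set per gene, with the covariate or without the week 4 array of control animal 1, and 0 to 3 leaving out each animal. PFKFB3 newly passed there with the animal as a fixed block (adjusted p = 0.0328) or without the week 12 array of control animal 5 (0.0354). SLC2A2 newly passed with quantile normalization (0.0444). Week 12 against week -5 gave 1, and 0 without the replicate block, without the filter or with the covariate, 2 by exact permutation, and 0 to 1 leaving out each animal. Week 12 against week 4 gave 1, and 0 without the week 12 array of control animal 5, 2 by exact permutation, and 0 to 1 leaving out each animal. Exact permutation also gave 1 for the difference between arms in the change at week 4 against week -5 and 1 for week 12 against week 4. With the covariate, 11.9% and 0.822% of all tested probe sets were called in anti-miR-33 livers at week 4 and week 12 against week -5. The shares in control livers were 16.6% and 3.07%. The animal as a fixed replicate block made 8 further member values pass and ended none of the calls; they are given with their genes.

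The precision is set by 6 animals per group and by a human array that met monkey RNA. Week 4 and week 12 differ from week -5 in the 3′ minus 5′ value too, so time and array quality cannot be told apart in the comparisons with week -5. The week 4 arrays carried a separate run of array numbers, so in every comparison with week 4, including week 12 against week 4, time and that run are joined. With the covariate the week -5 comparisons of GYS2, SLC2A2, the PDK4 probe set 205960_at, the PKLR probe set 207858_s_at (week 12), PFKFB3 (week 4) and FBP1 (week 12) no longer passed as calls with both arms averaged. The FBP1 week 12 difference did not shrink, at -0.30 without and -0.35 with the covariate. No age was given, and diet and treatment time are joined at week 12.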
